A study of Mus musculus with 48 samples.

Results

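The genes described here are the protein-coding genes for the proteins of the cytosolic ribosome, measured in single cells of the mouse inner cell mass (ICM) at E3.75. They were chosen by symbol: Rpl or Rps followed by a digit, together with Rplp0, Rplp1, Rplp2 and Rpsa. Kinases of ribosomal protein S6, the Rps19 binding protein and symbols holding -ps, which mark copies of these genes, were left out. The rule took 85 of 49671 genes in the count table, of which 33 code for proteins of the small (40S) subunit and 52 for proteins of the large (60S) subunit. Among them, 8 are paralogs of another member, and 4 members lie on chromosome X. Each of 84 members had a count in every well, and Rpl3l had no count in any well.

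Each library was 1 cell in 1 plate well, named by a letter and a number, and 48 wells were analysed. All cells came from embryos of intercrosses between PDGFRa::H2B-GFP/+ mice, in which a nuclear green reporter was targeted to the Pdgfra locus, and C57BL/6JxCBA/J F1 hybrids, mated naturally. The ICMs of flushed E3.75 embryos were isolated by immunosurgery, which kills the outer layer of cells, and then dissociated without further treatment. The methods give 3 embryos that carried the reporter, the labels do not say which embryo a cell came from, and the wells therefore count as 1 sample with no test between them. The progenitor types are those of the study's cluster tree, read by eye from its picture: 25 wells on the branch of epiblast progenitors (pEPI) and 23 on the branch of primitive endoderm progenitors (pPrE), and this tree was itself made from the expression of these cells. The summed counts of Uty, Kdm5d, Ddx3y and Eif2s3y, 4 genes of the Y chromosome, reached a minimum of 100 in 29 wells (17 pEPI and 12 pPrE), namely A1 to C2 and E1 to F3, and stayed under it in the other 19 (8 pEPI and 11 pPrE). From an earlier result of these data, those 19 are also given as C3 to D3 (9 wells) and as D4 to D8 with F4 to F8 (10 wells), a split made from the measurements and not from a label.

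Total counts ran from 1718970 to 7342785 per well, with a median of 4017082, and 9202 to 11547 genes had a count. In the pPrE wells, 14 of 14 pPrE marker genes that passed the filter lay at least 0.5 higher on the log2 scale than in pEPI wells, and 9 of 11 pEPI markers lay at least as far below, as the branch names state. Among the pEPI markers, Gdf3 (-0.42) and Bmp4 (0.17) did not. A list of 14 trophectoderm markers took 0.00635% to 0.0537% of the counts of a pEPI well and 0.00791% to 0.0446% of a pPrE well. Of the 9 that passed the filter, 4 lay at least 0.5 lower and 1 at least 0.5 higher in pPrE wells. Of all 11627 genes that passed it, 2323 and 1858 did so. Among the 9, Tfap2c lay furthest below, with means of 33.4 FPKM in pEPI and 2.32 FPKM in pPrE wells. Dppa1 was the higher one, with means of 0.270 FPKM in pEPI and 5.71 FPKM in pPrE wells. The median over wells was 131 FPKM for Tead4, 26.6 FPKM for Krt8 and 5.30 FPKM for Tfap2c. It was 0 for the rest of the list, which includes Cdx2, Gata3, Eomes and Elf5.

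A ribosome joins a small subunit, which reads the mRNA, to a large subunit, which makes the peptide bonds and lets the new chain leave through a tunnel. Each subunit holds ribosomal RNA and 1 copy of most of its proteins, so the proteins are needed in nearly equal numbers. Their mRNAs belong to the most abundant of growing cells, and most start with a tract of pyrimidines, the TOP (terminal oligopyrimidine) motif, through which their translation follows nutrient and growth signals.

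The members took 6.66% of the counts of the median well. The lowest share was 4.31% in F3, a pEPI well, and the highest was 8.92% in B3, a pPrE well, a 2.07-fold range with an SD of 0.961 percentage points over the 48 wells. In pEPI wells the lowest, median and highest shares were 4.31%, 6.55% and 7.73%. In pPrE wells they were 4.75%, 6.87% and 8.92%. The ranges of both progenitor types overlapped over most of their length, and the pPrE wells reached further up. The mean share was 6.36% ± 0.714 (SD over 25 wells) in pEPI and 7.06% ± 1.07 (SD over 23 wells) in pPrE, a log2 ratio of 0.15, and the pPrE well had the higher share in 69.4% of comparisons of 1 pPrE well with 1 pEPI well. With counts pooled, 6084929 of the pEPI counts (exact 95% Poisson interval 6080095 to 6089766) and 6381331 of the pPrE counts (6376381 to 6386284) fell on members, that is 6.34% and 6.82%. These intervals cover counting error alone and say nothing of the spread between cells or embryos.

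**Figure D1:**
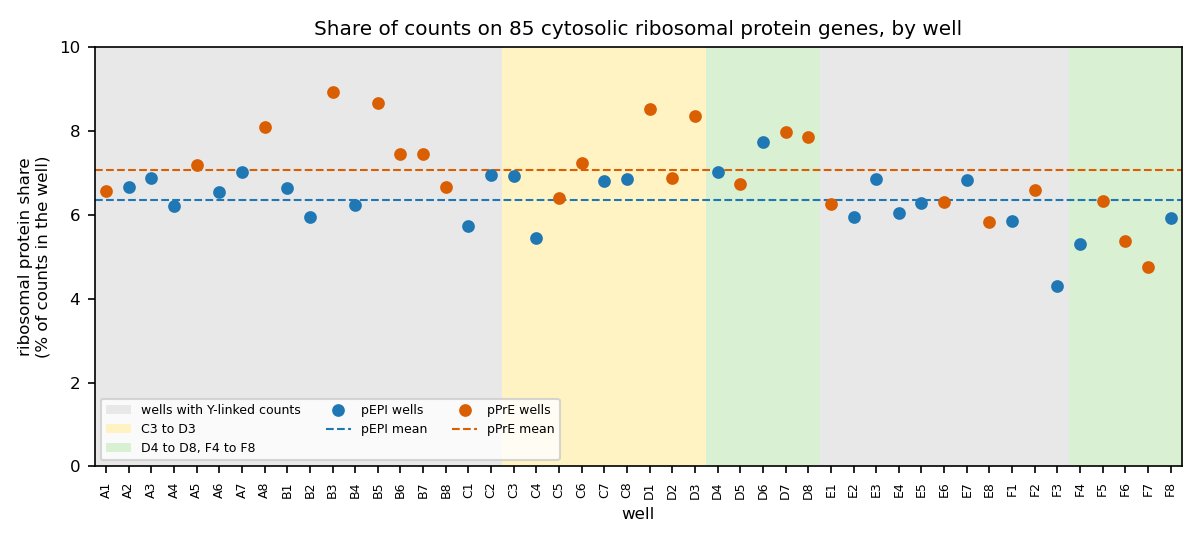
Share of the counts of each of the 48 wells (y axis, percent) that fell on the 85 ribosomal protein genes, with wells in plate order on the x axis, pEPI wells in blue and pPrE wells in orange. Dashed lines mark the means of 6.36% and 7.06%, shading marks the well sets, and the lowest and highest points are F3 (4.31%) and B3 (8.92%).

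The difference between the progenitor types was not seen everywhere on the plate. In the wells with Y-linked counts the mean share was 6.29% in pEPI and 7.16% in pPrE (log2 ratio 0.19). In C3 to D3 it was 6.51% in pEPI and 7.48% in pPrE (log2 ratio 0.20). In D4 to D8 and F4 to F8 it was 6.49% in pEPI and 6.50% in pPrE (log2 ratio 0.0023), so the 10 wells of this set showed nearly the same mean in both. The set joins 2 letters whose shares did not overlap, 6.74% to 7.98% in D4 to D8 and 4.75% to 6.32% in F4 to F8. By plate letter, the pPrE mean was the higher one in 5 of 6 letters, and the difference ran from -0.259 percentage points in E to 1.56 in B. The median share was highest in letter D (7.79%) and lowest in letter F (5.62%), and 49.7% of the variance of the share lay between letters. Progenitor type, embryo and plate position are not spread evenly over each other in these wells, and their parts in the difference were not tested.

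The share was also set beside other measures of the same wells. All of these correlations run over the same wells, share each well's total as the denominator and are given as descriptions. With the total count of the well, Pearson's r was -0.446 and Spearman's rho -0.402 over 48 wells, and r was -0.302 without the 2 wells farthest from the median total. In pPrE wells r was -0.719 (23 wells) and in pEPI wells -0.124 (25 wells). Without the 2 farthest wells of each type these were -0.573 and -0.430. The part of depth in the share was not tested. The share of the mitochondrial ribosomal protein genes (Mrpl and Mrps, 78 genes of the separate ribosome inside mitochondria) followed that of the members with r = 0.637, and the share of other translation mRNAs with a TOP motif with r = 0.438. A list of ribosome biogenesis genes, which holds genes for nucleolar factors and RNA polymerase I as well as Myc and Mycn, gave r = -0.300. The trophectoderm list gave r = -0.311. Without the 2 farthest wells r was 0.602 for the mitochondrial genes, 0.394 for the TOP list, -0.279 for the biogenesis genes and -0.165 for the trophectoderm list. Within pEPI and pPrE wells the TOP list gave 0.309 and 0.363, and 0.0989 and 0.0558 without the 2 farthest wells of each. The trophectoderm list gave -0.301 and -0.103, and 0.00166 and 0.0322 without those wells. Within the progenitor types, the values of these 2 lists thus rested in large part on a few wells. Over all 48 wells the value of the TOP list changed less, from 0.438 to 0.394.

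The balance of the subunits varied little. Levels are FPKM, counts scaled by a median-of-ratios library size and divided by the length of the principal transcript, so that they may be set side by side between genes. The summed FPKM of 40S members over that of 60S members had a median log2 ratio of -0.19, with the lowest well at -0.32 (E6) and the highest at -0.06 (A6), and an SD of 0.064 over wells. The 40S and 60S shares of counts moved together over wells with r = 0.942. The level of this ratio depends on the lengths used and on a different number of genes in each subunit. Its change between wells includes 40S members that differed between well sets, such as Rps3a1 and Rps18, described below. The median was -0.21 in wells with Y-linked counts and -0.15 in wells without, and the part of these members in that difference was not tested.

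Among single members, levels are given per length of the annotated principal transcript. Rps27, a 40S protein with a zinc-binding motif, had a mean of 2970 FPKM ± 763 (SD over 48 wells). Rps29, another zinc-binding protein of the 40S head, had 2514 FPKM. Rpl41, the shortest protein of the large subunit, had 2472 FPKM, and Rplp1, an acidic protein of the stalk that recruits elongation factors, had 2368 FPKM. The lowest means other than paralogs were 154 FPKM for Rps15a, 204 FPKM for Rpl22, 204 FPKM for Rpl15, 221 FPKM for Rps20 and 239 FPKM for Rpl27a. The family thus spanned more than a factor of 10 on this scale, which divides by the annotated length. Rps15a and Rps20, with annotated transcripts of 5179 and 3706 bases, had 148293 and 150539 counts over all wells, beside 178495 counts for Rps29 with 390 bases. Their low places are therefore those of the scale per length, and not of the counts. Of the 85 members, 45 were among the 100 genes with the highest mean FPKM and 82 among the first 1000.

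**Figure D2:**
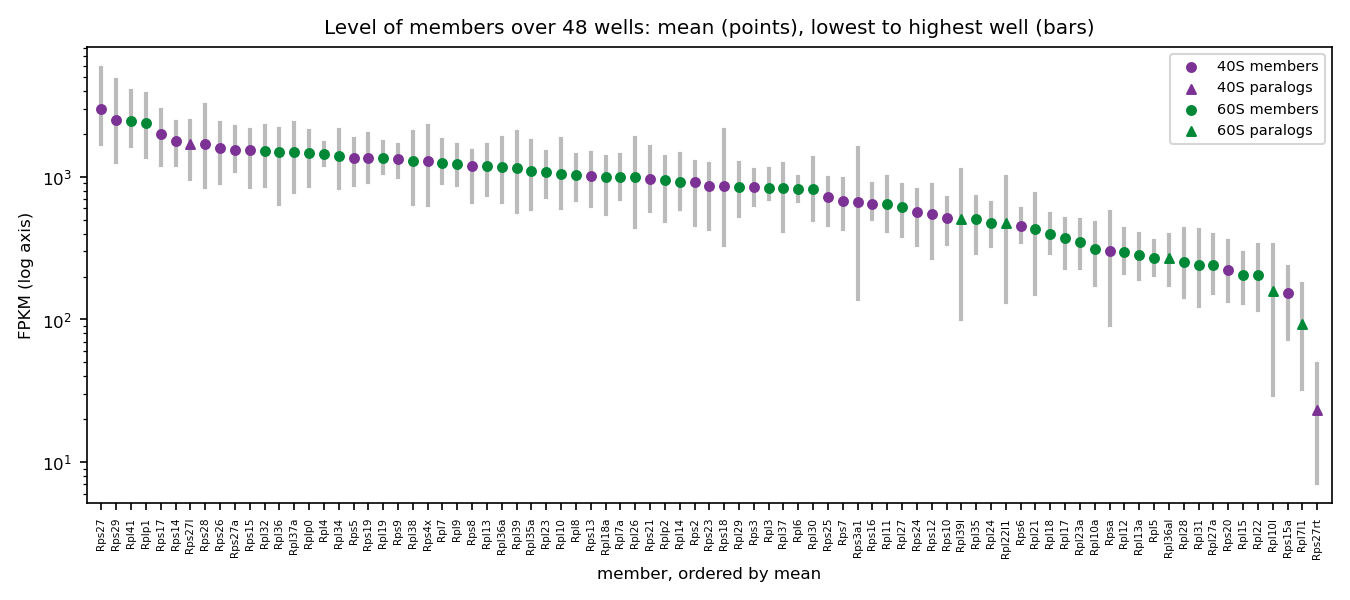
Level of members with counts, all but 1 of them, ordered by mean FPKM on a log axis: points are means over 48 wells, triangles are paralogs, violet is 40S and green is 60S, and bars run from the lowest to the highest well. Long bars stand out at Rps3a1 (140 to 1588 FPKM), Rps18 (335 to 2134 FPKM), Rpl39l (101 to 1113 FPKM) and Rpl10l (29.7 to 333 FPKM).

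Within the 40S subunit, proteins at the mRNA entry and head ranged from Rps20 (221 FPKM) to Rps29. Rps3, which lines the entry channel and helps unwind mRNA, lay at 630 FPKM in its lowest well, 838 FPKM in the median and 1119 FPKM in the highest. At the mRNA exit and platform, Rps14 had the highest mean (1765 FPKM) and Rpsa, also known as the laminin receptor precursor, the lowest (304 FPKM). In the 60S stalk, Rplp0, which anchors the stalk to the subunit, had 859, 1513 and 2081 FPKM in its lowest, median and highest well. Its acidic partner Rplp2 had a mean of 940 FPKM and Rpl12, at the base of the stalk, 299 FPKM. Rpl5 and Rpl11, which carry 5S rRNA and can bind the p53 regulator Mdm2 when assembly is disturbed, had means of 271 FPKM and 642 FPKM. Around the exit tunnel the means ran from 204 FPKM for Rpl22 to 1432 FPKM for Rpl4, which narrows the tunnel. These differences hold per annotated length. In normalised CPM, counts scaled by library size without length, Rpl5 and Rpl11 had means of 554 and 531 in wells with Y-linked counts.

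The paralogs replace a member in some tissues or serve other roles. Rpl22l1 was the paralog that exceeded its partner: its level was 133, 444 and 999 FPKM in the lowest, median and highest well against a mean of 204 FPKM for Rpl22, a ratio of means of 2.32, and it was the higher of the pair in 44 of 48 wells. Without length the order turned, with 48760 counts for Rpl22l1 and 77507 for Rpl22 over all wells, on annotated transcripts of 552 and 2051 bases. Their coding sequences were 70.2% identical, so 150-base reads can tell them apart. Rps27l, known as a p53 target, stood at 0.574 of the mean of Rps27, with 1706 FPKM, and was below it in every well. Rpl39l, known from male germ cells, stood at 0.443 of Rpl39 and was the higher one in 1 well. The remaining pairs were far apart. The ratio of means was 0.228 for Rpl36al to Rpl36a, 0.153 for Rpl10l to Rpl10, and 0.0743 for Rpl7l1 to Rpl7. Rpl3l, known from heart and skeletal muscle, was listed at 0 beside 838 FPKM for Rpl3. Rps27rt, a copy of Rps27 with a single exon, had 0.00788 of the mean of Rps27, and because their coding sequences were 100% identical, counts of the pair cannot be told apart by sequence within it. The levels of Rpl22l1 and Rpl39l varied over wells more than those of most members, with CVs (SD over mean) of 0.454 and 0.511.

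Over wells, most members moved together. For each member, the log2(FPKM + 1) values were compared with the mean of the other members across the 48 wells, and the median r over members was 0.716. The members closest to the rest were Rpl37a (r = 0.913), Rpl41 (0.892), Rpl38 (0.882), Rplp2 (0.873) and Rpl32 (0.872), all of the large subunit. Over 3486 pairs of members the median r was 0.443 and 91.6% of pairs were above 0, with 0.515 within the 40S subunit, 0.399 within the 60S subunit and 0.457 between them. Members of the same subunit were therefore not set apart from members of the other one. As all values share each well's scaling, these r describe the wells and carry no test.

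The members that departed from the family did so in different ways. Rpl7l1 had the lowest r with the others at -0.385, and Rpl10l, a retrogene, had 0.008. Rpl3, which lies beside the catalytic centre, had 0.015, Rps3a1 had 0.040 and Rpl4 had 0.043. Rpl4 was the steadiest gene of all: its CV over wells was 0.088, the lowest of the 11627 genes with a mean of at least 1 FPKM, with 1205, 1417 and 1713 FPKM in the lowest, median and highest well. Rpl3 was also steady, at 703, 819 and 1140 FPKM (CV 0.117). Rps3a1 had the opposite pattern, with the highest CV of the members at 0.847. The median CV was 0.197 over members, 0.393 over mitochondrial ribosomal protein genes and 0.867 over all genes tested, and high levels alone lower the CV by reducing counting error. Set against the trend of CV squared on level, 23 of 84 members lay above it, where 49.5% of all genes did.

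Outside the family, few of the lists fixed for this report followed it. The median r with the mean of the members was 0.161 for 18 other TOP mRNAs of translation, 0.080 for mitochondrial ribosomal protein genes, -0.146 for 34 ribosome biogenesis genes and -0.010 for all genes. Fau (r = 0.790), whose product is a ubiquitin-like protein fused to a ribosomal protein, stood high in the TOP list although its symbol keeps it out of the members. The elongation factors Eef1a1 (r = -0.14) and Eef2 (r = -0.27) did not follow the members. Of all genes with a mean of at least 10 FPKM, those most like the members' mean were Gm10076 (0.895), Gm10736 (0.844), Gm4149 (0.836), Gm19243 (0.810) and Fau, and 3 of these are annotated as processed pseudogenes. Of the 100-base runs of Rpl37a and Rpl41, the members closest to the rest, 21.4% and 17.4% also occur in Gm4149 and Gm10076. At the other end were Sf3b1, a splicing factor (-0.700), Eif5, an initiation factor (-0.683), Gm12346 (-0.627), Gm8355 (-0.590) and Ftsj3, a nucleolar factor of rRNA processing (-0.586).

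The start of the genes was read from the RefSeq promoter table (GRCm38.p6), which matched 65 members, 10 of them with more than 1 promoter. The following windows hold the 20 bases before the start and the 10 bases from it, 5′ to 3′ on the coding strand, with the longest run of C or T in capitals, and are shown because the members closest to the family and those apart from it can be compared in them. They lie at chr11:114668560-114668589 (+) for Rpl38, chr7:141447631-141447660 (+) for Rplp2, chr3:28805488-28805517 (+) for Rpl22l1, chr9:64173367-64173396 (+) for Rpl4, chr1:72711240-72711269 (+) for Rpl37a and chr3:86142659-86142688 (-) for Rps3a1.
Rpl38: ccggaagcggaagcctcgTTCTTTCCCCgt
Rplp2: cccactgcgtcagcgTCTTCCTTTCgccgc
Rpl22l1: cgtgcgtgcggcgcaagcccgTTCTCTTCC
Rpl4: agTCTTTCCTTTTCCTgtgggagcagccgg
Rpl37a: gtcaCTTCCgctcgccggtctaaaaccgcg
Rps3a1: gaTTCTTaaagccggaagggcgaaagagca

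The run of pyrimidines spanned the annotated start in Rpl38 and Rplp2, began just after it in Rpl22l1, and lay before it in Rpl4, Rpl37a and Rps3a1. A C followed by at least 4 C or T, beginning within 5 bases of the start, was present in 41.6% of the 77 member promoters and in 18.3% of 32851 promoters of the table. The letters CCGGAA on either strand were present in 48.1% of member promoters over 300 bases, against 14.9% of all. TATAAA in the 50 bases before the start was present in 1.30% against 2.63%. These are matches of letters in a window around an annotated start, and no match says only that the letters are not in that window.

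Between the progenitor types, nearly all members were a little higher in pPrE wells. The log2 ratio of mean FPKM, pPrE over pEPI, had a median of 0.15 over 84 members and ran from -0.18 (Rpl10l) to 0.49 (Rps3a1), beside a median of 0.003 over all 11627 genes. No member reached 0.5 in either direction, where 8.49% of the 5287 genes with a mean of at least 10 FPKM lay at or above 0.5 and 12.2% at or below -0.5 (1858 and 2323 of the 11627 genes). A ratio above 0 was found for 81 of 84 members, against 50.3% of all genes, and for 77 of the 77 members other than paralogs. Because the members move together over wells, these 81 ratios are not 81 separate observations. The median was 0.13 for 40S and 0.15 for 60S members, 0.09 for the stalk and 0.15 for the exit tunnel. At the exit tunnel Rpl26 (0.24) and Rpl31 (0.22) had the highest ratios and Rpl4 (0.06) and Rpl19 (0.07) the lowest, and in the stalk Rplp2 had 0.25 and Rplp1 0.12. At the mRNA exit side of the 40S subunit Rps21 (0.23) and Rps28 (0.20) stood above Rpsa (0.02), and at the entry side Rps19, which is mutated in some patients with Diamond-Blackfan anaemia, had 0.18 and Rps2 0.01. Each of these sites thus held members with ratios near 0.2 over all wells as well as members nearer to 0. Rpl26 and Rpsa also differed between well sets, as described below. Their ratios were 0.15 and 0.06 in wells with Y-linked counts, 0.45 and 0.37 in C3 to D3, and -0.02 and -0.15 in D4 to D8 with F4 to F8. Mitochondrial ribosomal protein genes had a median of 0.035 (44 of 78 above 0), other TOP mRNAs 0.074 (14 of 18 above 0) and ribosome biogenesis genes 0.007. The biogenesis genes ran from -1.37 (Myc) to 1.07 (Mycn).

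**Figure D3:**
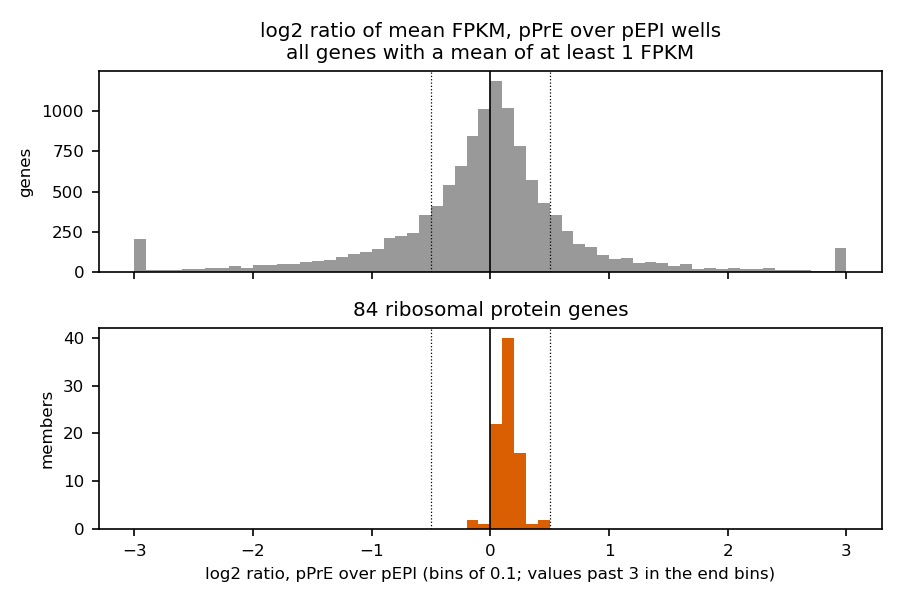
Log2 ratio of mean FPKM, pPrE over pEPI wells (x axis, bins of 0.1), as the number of genes (y axis) for all 11627 genes with a mean of at least 1 FPKM (upper panel) and for 84 ribosomal protein genes (lower panel). The members form a narrow peak around 0.15 between -0.18 and 0.49, inside the much wider spread of all genes.

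The members with the highest ratios were Rps3a1 (0.49), Rps18 (0.46), Rpl9 (0.30), Rpl10 (0.29) and Rpl27a (0.28). Rpl9, a 60S protein near the base of the stalk, had 880, 1095 and 1264 FPKM in the lowest, median and highest pEPI well. In pPrE wells it had 925, 1303 and 1667 FPKM. The pPrE wells of Rpl9 reached above every pEPI well, yet the ranges overlapped. Its ratio was 0.34 in wells with Y-linked counts, 0.33 in C3 to D3 and 0.14 in D4 to D8 with F4 to F8. For Rps3a1 the ratio was 0.22 in wells with and 0.08 in wells without Y-linked counts, both under its value over all wells, and pPrE made up a larger part of the wells without. The ratio of Rps18 was 0.25 in wells with Y-linked counts, 0.30 in C3 to D3 and 0.16 in D4 to D8 with F4 to F8, each also under its value over all wells. Rpl10 had 0.18, 0.28 and 0.22 in the same order of sets, each under its value over all wells. The lowest ratios were those of Rpl10l (-0.18), Rpl7l1 (-0.14), Rpl39l (-0.06), Rplp0 (0.003) and Rpl7a (0.012), so the 3 members below 0 were all paralogs. By set, Rplp0 had 0.15 in wells with Y-linked counts, -0.05 in C3 to D3 and 0.03 in D4 to D8 with F4 to F8.

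The shift towards pPrE was again uneven over well sets. Within the wells with Y-linked counts the median ratio of the members was 0.18, and 81 of 84 were above 0 (48.5% of all genes). Within C3 to D3 it was 0.22, with 80 of 84 above 0 (49.1% of all genes). Within D4 to D8 and F4 to F8 it was -0.0043 with the library sizes of all wells and 0.0022 with sizes computed within the set, with 42 of 84 above 0 (50.3% of all genes). In this last set, with 4 pEPI and 6 pPrE wells, the members showed no common shift, and 38 of 84 members were above 0 in all 3 sets, against 17.3% of all genes. The difference between the sets was not tested.

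The 4 X-linked members were then compared between wells without and with Y-linked counts. Rps4x, a 40S protein whose gene has a Y-linked homolog in humans, had 632, 1064 and 1472 FPKM in the lowest, median and highest well with Y-linked counts and 1060, 1705 and 2257 FPKM in those without, a log2 ratio of 0.67. Rpl10, a late-joining 60S protein close to the catalytic centre, had 607, 895 and 1315 FPKM against 759, 1238 and 1831 FPKM, a log2 ratio of 0.55. Both were higher without Y-linked counts, with overlapping ranges. Rpl36a and Rpl39 differed less, with log2 ratios of 0.13 each. The median of the 4 X-linked members was 0.34, that of the 80 autosomal members -0.03 and that of all 180 X-linked genes with a mean of at least 10 FPKM 0.18. In the same comparison 6 members lay at or above 0.5 (19.1% of all genes) and 3 at or below -0.5 (17.8% of all genes). Among the 5287 genes with a mean of at least 10 FPKM, 600 lay at or above 0.5 and 536 at or below -0.5. The 6 were Rps3a1, Rps18, Rpl22l1, Rps4x, Rpl10 and Rpl26, and the 3 were Rpl39l, Rplp0 and Rpl21, of which Rpl21 was named after its values were seen. The progenitor types are not equally frequent in the wells with and without Y-linked counts, and embryo and well set cannot be told apart here.

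A few members separated the well sets without any overlap, while no gene of the 11627 tested did so for the progenitor types. Rps3a1 and Rps18 were higher in every well without Y-linked counts than in any well with them (0.112% of all genes had ranges without overlap in either direction). Rplp0, Rpsa and Rpl21 were lower in every well of D4 to D8 and F4 to F8 than in any other well (0.163% of all genes in either direction), and no member set C3 to D3 apart (0.112% of all genes). Because D4 to D8 were set apart from C3 to D3 by an earlier result of these data, the pattern of these 3 genes is a description. All of these ranges are of the members' own rows, and sums with rows that share their sequence are given below. Of the variance of log2 level over wells, 96.9% lay between the 3 sets for Rps3a1, 88.2% for Rps18, 84.1% for Rpl21, 82.7% for Rplp0, 79.7% for Rpsa, 59.5% for Rps4x, 54.2% for Rpl26 and 52.5% for Rpl10. These 8 were the members with at least 50%, which 137 of the 11627 genes reached. Over the 84 members the median was 3.50%, beside 4.99% over all genes.

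Rps3a1, a 40S protein at the mRNA exit side that contacts the initiation factor eIF3, lies at chr3:86137940-86142702 on the minus strand (GRCm38) and has 6 exons. Rows for the processed pseudogenes Rps3a2 (chr14:88123017-88123808, minus strand) and Rps3a3 (chr13:108670603-108671397, plus strand), each with 1 exon, hold nearly the same coding sequence, with 4 mismatches in 792 bases (99.5% identity) and 9 in 795 (98.9%). These pseudogenes, and those named below, were chosen after their values were seen. A window of 60 coding bases from each is shown to let the differences between them be seen, at chr3:86138488-86138547 (-), chr14:88123141-88123200 (-) and chr13:108671211-108671270 (+), 5′ to 3′ on the coding strand, with the positions that differ among the 3 in capitals.
Rps3a1: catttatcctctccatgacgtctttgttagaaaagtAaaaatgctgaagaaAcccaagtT
Rps3a2: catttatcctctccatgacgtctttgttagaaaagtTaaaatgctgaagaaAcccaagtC
Rps3a3: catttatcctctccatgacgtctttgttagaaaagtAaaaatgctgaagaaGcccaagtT

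Rps3a1 had 140, 216 and 309 FPKM in the lowest, median and highest well with Y-linked counts. It had 1002, 1354 and 1588 FPKM in the wells without, a log2 ratio of 2.59. The pseudogenes showed the reverse: Rps3a2 lay between 214 and 405 FPKM in wells with Y-linked counts and between 10.2 and 21.3 FPKM in the others, and Rps3a3 between 452 and 811 FPKM and between 17.4 and 29.8 FPKM. No well was intermediate for any of the 3 rows. In normalised CPM, which use the same library size but no length, the sum of the 3 rows had a mean of 971 in wells with Y-linked counts, 1362 in C3 to D3 and 1343 in D4 to D8 with F4 to F8. The sum ran from 665 to 1239 in wells with Y-linked counts and from 1006 to 1589 in those without, so its ranges overlapped. With all 5 rows that share a run of 100 bases with Rps3a1 added, the log2 ratio went from 2.59 to 0.47, and over wells the member and those rows had r = -0.940. How reads were divided among these rows was not tested.

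**Figure D4:**
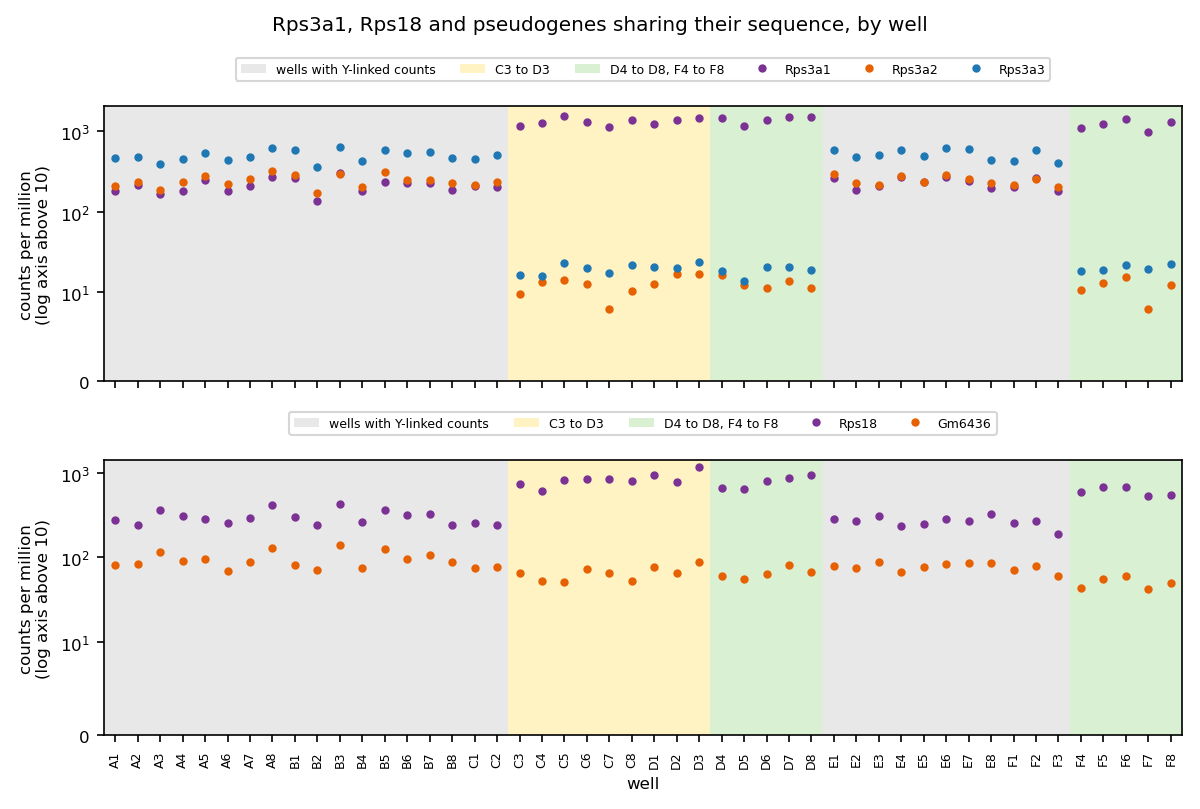
Normalised CPM (y axis, logarithmic above 10) in the 48 wells in plate order, for Rps3a1 with the pseudogenes Rps3a2 and Rps3a3 (upper panel) and for Rps18 with Gm6436 (lower panel). Shading marks the well sets: Rps3a1 is high where Rps3a2 and Rps3a3 are low, and Rps18 has its higher values in the same 19 wells.

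Rps18, a protein of the 40S head (chr17:33951999-33956001, minus strand), had 335, 490 and 758 FPKM with Y-linked counts. Without them it had 944, 1408 and 2134 FPKM, a log2 ratio of 1.41. Its pairwise r with Rps3a1 was the highest of all pairs of members at 0.944. The 5 rows that share sequence with Rps18 made up 22.6% of the summed counts. The processed pseudogene Rps18-ps3 is closer to Rps18 than Gm6436, with 3 mismatches in 456 aligned coding bases (99.3% identity). Gm6436, also a processed pseudogene, is 94.8% identical over 443 aligned coding bases. It had a mean of 87.7 normalised CPM with Y-linked counts, 65.8 in C3 to D3 and 57.9 in the third set. With those rows added the log2 ratio of Rps18 was 0.95, so here the rows that share sequence took up a smaller part of the difference than for Rps3a1.

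Rplp0, the anchor of the 60S stalk (chr5:115559467-115563727, plus strand), shares most of its coding sequence with the processed pseudogenes Gm8730 (chr8:102864845-102865798, minus strand, 98.7% identity) and Gm9625 (chr13:67810246-67811200, plus strand, 97.5%). Rpl26, a protein at the exit of the tunnel (chr11:68901583-68906989, plus strand), shares its own with Gm15772 (chr5:3236431-3236868, plus strand), with 2 mismatches in 438 bases (99.5%). The windows of 60 coding bases lie at chr5:115560930-115560989 (+), chr8:102865496-102865555 (-) and chr13:67810489-67810548 (+) for the first group and at chr11:68903179-68903238 (+) and chr5:3236599-3236658 (+) for the second, with differing positions in capitals.
Rplp0: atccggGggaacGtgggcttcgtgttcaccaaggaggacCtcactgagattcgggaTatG
Gm8730: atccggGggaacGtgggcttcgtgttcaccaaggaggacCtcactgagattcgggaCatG
Gm9625: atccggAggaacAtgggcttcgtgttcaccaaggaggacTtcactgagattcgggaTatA
Rpl26: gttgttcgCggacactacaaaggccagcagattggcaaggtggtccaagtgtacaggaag
Gm15772: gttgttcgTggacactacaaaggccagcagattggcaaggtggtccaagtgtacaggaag

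Rplp0 had 859, 935 and 1002 FPKM in the lowest, median and highest well of D4 to D8 and F4 to F8. It had 1079, 1300 and 1615 FPKM in C3 to D3 and 1330, 1752 and 2081 FPKM in the wells with Y-linked counts. The 3 sets thus formed 3 steps, of which the lowest did not overlap the others. Gm8730 stepped through the same sets in the other direction, with means of 32.05, 314 and 589 normalised CPM in the wells with Y-linked counts, C3 to D3 and the last set, and Gm9625 had means of 11.7, 110 and 201. The sum of the 3 rows had means of 2358, 2227 and 2058. It ran from 1883 to 2242 in the last set and from 1839 to 2878 in the other wells, with overlap. The log2 ratio of Rplp0 in D4 to D8 and F4 to F8 over the other wells was -0.79 alone and -0.18 with the rows that share its sequence.

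Rpl26 stood higher in the wells where its pseudogene was low. In D4 to D8 and F4 to F8 it had 1074, 1482 and 1860 FPKM, against 442 to 1314 FPKM in wells with Y-linked counts and 549 to 1308 FPKM in C3 to D3, with overlapping ranges. Gm15772 had a mean of 20.5 normalised CPM in that set, 438 in wells with Y-linked counts and 481 in C3 to D3. The sum of Rpl26 and Gm15772 had means of 931, 951 and 1005 in the same order. The log2 ratio of Rpl26 was 0.82 alone and -0.05 with its sharing rows, so little of its difference between sets was left once those rows were counted.

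**Figure D5:**
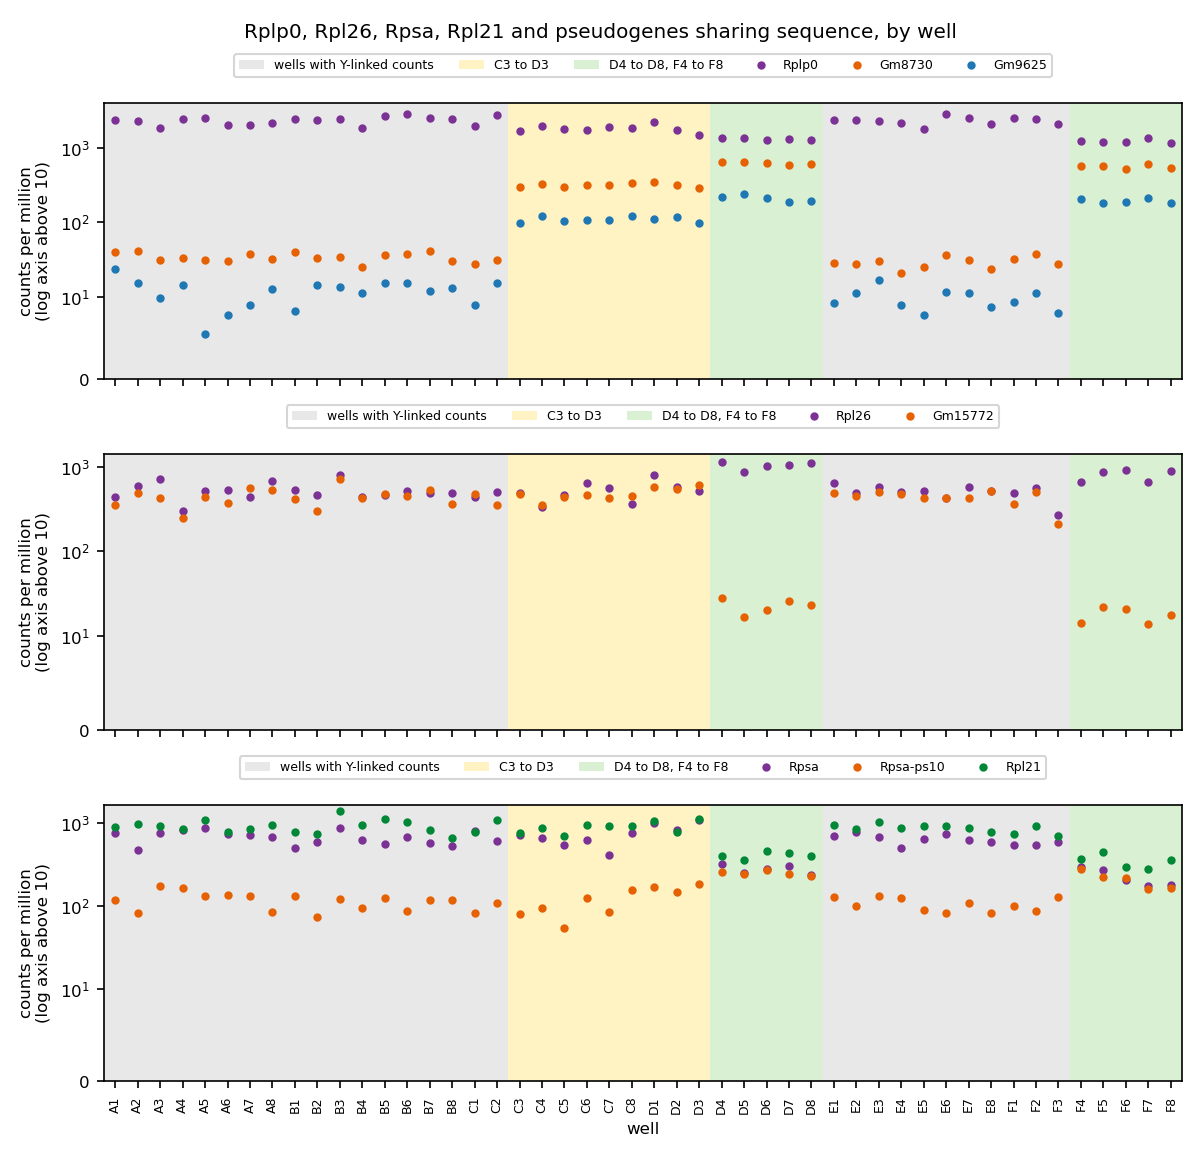
Normalised CPM (y axis, logarithmic above 10) in the 48 wells in plate order, for Rplp0 with Gm8730 and Gm9625 (upper panel), Rpl26 with Gm15772 (middle panel) and Rpsa with Rpsa-ps10 beside Rpl21 (lower panel). In D4 to D8 and F4 to F8, Rplp0, Rpsa and Rpl21 sit at their lowest values, Rpl26 at high values and Gm15772 near 20.5.

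Rpsa and Rpl21 kept more of their difference. Rpsa (chr9:120127689-120132369, plus strand) had 91.3, 136 and 164 FPKM in D4 to D8 and F4 to F8, against at least 214 FPKM in every other well, a log2 ratio of -1.42. The processed pseudogene Rpsa-ps10, 99.3% identical over 885 aligned bases, had means of 228 normalised CPM in that set, 112 in wells with Y-linked counts and 122 in C3 to D3. With the 8 sharing rows added the log2 ratio of Rpsa was -0.71. A window of 60 coding bases in which they differ lies at chr9:120129184-120129243 (+) and chr3:150073324-150073383 (-), with the differing positions in capitals.
Rpsa: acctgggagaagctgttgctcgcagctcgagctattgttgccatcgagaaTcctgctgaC
Rpsa-ps10: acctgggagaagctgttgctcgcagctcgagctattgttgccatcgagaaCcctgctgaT

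Rpl21, a 60S protein (chr5:146832890-146837032, plus strand), had 152, 206 and 245 FPKM in that set against at least 358 FPKM elsewhere, a log2 ratio of -1.25, and -1.01 with the 36 rows that share its sequence. Its copies Gm10163 and Gm10240, each with 2 mismatches, had 27.6 and 14.2 normalised CPM in that set and at most 1.19 in the others on average. Both members thus had lower means in that set after the rows with shared sequence were added. Rpsa with Rpsa-ps10 ran from 336 to 576 normalised CPM in that set and from 500 to 1283 in the other wells, so these ranges overlapped. Rpl21 with Gm10163 and Gm10240 ran from 316 to 538 in that set and was at least 666 in every other well.

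Across the family, 76 members shared a run of 100 bases with at least 1 other row that had counts. Of these, 8 differed by at least 0.5 on the log2 scale between wells without and with Y-linked counts, and 4 did once the sharing rows were added, where 36.9% of all genes differed by that much in either direction. Between D4 to D8 with F4 to F8 and the other wells, 6 differed by that much alone and 2 with the sharing rows, beside 38.2% of all genes. Both counts were below the share of all genes. The median level was 888 FPKM over members and 8.21 FPKM over all genes, and the part of level in these shares was not tested. The rows with -ps symbols, left out of the members by the rule, held 231338 counts over all wells, 0.122% of the total, led by Rps2-ps10 with 36144, Rpl9-ps6 with 10637 and Rpl15-ps2 with 9633. Their share per well followed that of the members with r = 0.928.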

How the data were processed

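Full-length cDNA libraries (Smart-seq2) of 48 single E3.75 ICM cells were sequenced with paired reads of 150 bases. The authors aligned reads to mm10 with STAR, named in the submitters' processing notes without a version, and deposited raw read counts per gene made with HTSeq on Ensembl 87. They dropped libraries with fewer than 500000 mapped reads. How reads that map to several places were counted is not given in the sources used here, and genes with near-identical copies are uncertain for that reason.

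The deposited counts were used as they are. Share is the percent of all counts of a well. FPKM used median-of-ratios library sizes and the length of the principal transcript (GENCODE M21). Normalised CPM use the same library sizes without length. Fold changes of genes are log2 ratios of mean FPKM. Those of the share used mean percents, and those with sharing rows added used mean normalised CPM. Correlations of members and other genes with the family used log2(FPKM + 1). Correlations of shares used percents, and that of Rps3a1 with its sharing rows used normalised CPM. Genes with a mean of at least 1 FPKM (11627) formed the background, and a fold of 0.5 on the log2 scale was used for counts of genes. As the labels give no embryo, the wells are 1 sample, no test was run, and SDs are over wells. The members, lists and comparisons were chosen with earlier results of these data known. Genes were named by rule: paralogs with partners, the 5 highest and 5 lowest by level, by correlation and by ratio, X-linked members, the structural and other lists, the non-member genes most and least like the family, and the 3 -ps rows with the most counts. For 1 member and 1 gene of a list, single values are not reported here. Others are said to be chosen after their values were seen. Rows sharing sequence were found as runs of 100 identical bases. The scripts recovered set changes on simulated data. Python 3.11.15, pandas 2.3.3, numpy 2.4.6, scipy 1.17.1, Biopython 1.88 and matplotlib 3.10.9 were used. For 8 summary results, 111 other settings and 14 more added after seeing the data were tried.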

Additional observations from a re-analysis of the deposited data

Results flagged for a closer look

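Signal was found in rows outside the members. The processed pseudogenes Rps3a2 and Rps3a3 had median levels of 299.8 FPKM and 621 FPKM in the wells with Y-linked counts. Gm15772, which shares its sequence with Rpl26, held 65811 counts over all wells, and Gm8730, which shares its sequence with Rplp0, held 39938. The rows with -ps symbols together held 231338 counts.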

How the results depend on the processing

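For 8 summary results, 125 alternatives were computed (111 planned, 14 added after seeing the data), and 116 gave a value within 1 SD of the reported one (over wells, or over members for the correlation) or, for counts, within 1.5 times it. That spread is wide enough to take in ratios near 0: in D4 to D8 with F4 to F8 the log2 ratio of the share was 0.0023 and the median ratio 0.0022, beside 0.15 and 0.15 as reported. Some alternatives could not differ. The same 84 members passed with no filter and with a mean of at least 10 FPKM. A count of 0 members at a fold of 0.5 stays 0 at a fold of 1. The number within the spread is therefore no measure of how firm the results are. The median share ran from 6.18% to 7.65%, where 7.65% used the counts on protein-coding genes as the denominator. The log2 ratio of the share ran from 0.0023 to 0.20, the median ratio of the members from 0.0022 to 0.22 and the X-linked median from 0.21 to 0.42. With the library sizes of all wells the median ratio in D4 to D8 with F4 to F8 was -0.0043, so its sign there depended on the scaling. The 40S to 60S log2 ratio was -0.45 with the union of exons as length. The median r of a member with the others was 0.446 with the -ps rows added. The count of members at or above 0.5 in pPrE, 0 as reported, was 1 with CPM, 1 with a ratio of medians, 1 with summed counts, 2 without letter B and 2 without letter C. The count at or below -0.5 was 1 in wells without Y-linked counts (Rpl10l, -0.56). With rows that share sequence added, the log2 ratio of Rpl26 went from 0.82 to -0.05 (-0.0534), so little difference was left. The cause of these changes was not tested. No paired analysis was possible because the labels give no replicate number that links wells of the progenitor types.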
